A study of Arabidopsis thaliana with 6 samples.

Results

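The 10 Arabidopsis thaliana genes for proline synthesis, breakdown and transport were picked by locus code from the 33602 genes of the deposited table, and all 10 were found. They are P5CS1, P5CS2 and P5CR for synthesis, OAT for the route from ornithine, ProDH1, ProDH2 and P5CDH for breakdown, and ProT1, ProT2 and ProT3 for transport. Their levels were compared between 2 groups of 3 leaf libraries, the pub2pub4 double mutant and wild type, both labelled mock. All plants were 25 days old and grown with 16 h of light and 8 h of darkness. PUB2 and PUB4 encode U-box ubiquitin ligases that the series title places in plant immunity. The labels name neither the mutant alleles, the accession and the mock treatment, nor whether a library came from 1 plant or a pool. P-values therefore measure the spread between these libraries, which may be technical.

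P5CS1 was already known to be among the genes that differ between mutant and wild type in these libraries when the pathway was chosen. The members as a whole, ProDH1 included, were chosen with earlier results of this comparison known. The differences between the groups are therefore given as a description of the members and are not independent support for a change of the pathway. Adjusted p-values come from a quasi-likelihood fit in edgeR over all 19019 tested genes, two-sided, with Benjamini-Hochberg adjustment, and a gene is called at an adjusted p under 0.05. Levels are CPM, counts scaled to a common library size, and further adjusted between libraries by TMM, which corrects library totals for composition.

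Proline is made from glutamate by P5C synthase (P5CS), which forms pyrroline-5-carboxylate (P5C), and P5C reductase (P5CR), which turns P5C into proline. In mitochondria proline dehydrogenase (ProDH) oxidises proline back to P5C, and P5C dehydrogenase (P5CDH) completes the return to glutamate. Leaves are known to accumulate proline under drought, salt and abscisic acid, when P5CS1 is induced and ProDH1 repressed, and to break it down again on rewatering.

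The libraries had 20506882 to 20732799 expected counts. PUB2 was at 0.382 to 0.588 CPM in pub2pub4 and 7.48 to 10.3 CPM in wild type, and PUB4 at 2.39 to 3.82 CPM in pub2pub4 and 19.0 to 23.6 CPM in wild type, so the libraries followed their labels. Of the markers fixed for other tissues, those of root summed to at most 0.434 CPM in any library, those of pollen to at most 0.0492 CPM and those of seed to at most 0.196 CPM. Mesophyll markers summed to 23921 to 28495 CPM in pub2pub4 and 26556 to 28231 CPM in wild type. In bulk leaf RNA, fewer cells of a type and less RNA per cell cannot be told apart.

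The sequences upstream of 4 members are shown because they belong to the member that rose, the one that fell, and their closest partners in synthesis and breakdown. Each is the 250 bases before the annotated gene start in RefSeq (TAIR10.1), 5′ to 3′ on the gene's own strand. Capitals mark matches on either strand to a pair of motifs. The first, ACTCAT, is the core of an element known from the ProDH1 promoter, through which proline and low osmolarity induce that gene. The other is one form of the dehydration-responsive element, with the letters ACCGAC.
P5CS1 (chr2:16603320-16603569, minus strand): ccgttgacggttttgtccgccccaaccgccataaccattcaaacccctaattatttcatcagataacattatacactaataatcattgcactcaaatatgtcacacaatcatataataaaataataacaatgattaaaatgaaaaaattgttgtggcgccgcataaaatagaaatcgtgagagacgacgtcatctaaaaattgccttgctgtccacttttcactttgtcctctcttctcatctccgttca
P5CS2 (chr3:20629296-20629545, minus strand): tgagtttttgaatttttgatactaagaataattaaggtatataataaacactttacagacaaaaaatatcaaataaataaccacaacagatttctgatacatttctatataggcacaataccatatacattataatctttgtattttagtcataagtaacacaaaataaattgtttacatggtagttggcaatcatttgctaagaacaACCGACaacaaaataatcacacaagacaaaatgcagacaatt
ProDH1 (chr3:12451557-12451806, minus strand): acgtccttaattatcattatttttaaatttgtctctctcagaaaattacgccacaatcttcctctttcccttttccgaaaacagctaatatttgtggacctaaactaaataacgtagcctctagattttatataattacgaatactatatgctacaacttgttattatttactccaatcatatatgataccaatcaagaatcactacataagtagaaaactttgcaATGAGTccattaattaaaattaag
P5CDH (chr5:25103313-25103562, minus strand): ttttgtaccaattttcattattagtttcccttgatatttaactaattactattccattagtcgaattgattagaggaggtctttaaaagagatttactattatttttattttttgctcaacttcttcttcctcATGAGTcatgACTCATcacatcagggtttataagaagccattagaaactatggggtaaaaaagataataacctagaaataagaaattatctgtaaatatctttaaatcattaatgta

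ACTCAT lay 19 to 24 bases before the annotated ProDH1 start. P5CDH held it on both strands, at 112 to 117 and at 102 to 107 bases before its start. Among the 10 members these were the only genes with the motif in this window, against 12.3% of the windows of 27443 protein-coding genes. ACCGAC stood 37 to 42 bases before the P5CS2 start and in no other member's window, against 4.70% of all windows. The G-box CACGTG, in 6.49% of all windows, the abscisic acid response elements ACGTGGC (3.37%) and ACGTGTC (3.68%), the second dehydration element GCCGAC (2.56%) and the phosphate starvation motif GNATATNC (5.46%) matched in no member's window. These letters say nothing about binding, and P5CS1 has 3 annotated starts, between 16603059 and 16603319 on chromosome 2, of which the window precedes the outermost.

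Among the members, P5CS1 rose and ProDH1 fell in pub2pub4 leaves. That is 2 of 10 members called, against 4.46% of all tested genes, with 1 higher, against 2.49%, and 1 lower, against 1.97%. Because the contrast was known when the members were chosen, nothing is read from these shares. All 10 members passed the filter on low counts. Values of the 2 groups of libraries did not overlap for 4 members that were higher in the mutant (P5CS1, P5CS2, P5CDH and ProT1) and for 2 that were lower (ProDH1 and ProT2), against 13.4% and 12.7% of all tested genes, or 26.2% in either direction. DESeq2 called 3 members higher, against 3.95% of all genes, and 1 lower, against 3.72%. With limma-voom 1 was called higher, against 2.23%, and 1 lower, against 1.67%, and blocking by replicate number gave 1 higher, against 2.57%, and 1 lower, against 3.03%. The median log2 fold change was 0.22 over the members and 0.01 over all tested genes.

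**Figure D1:**
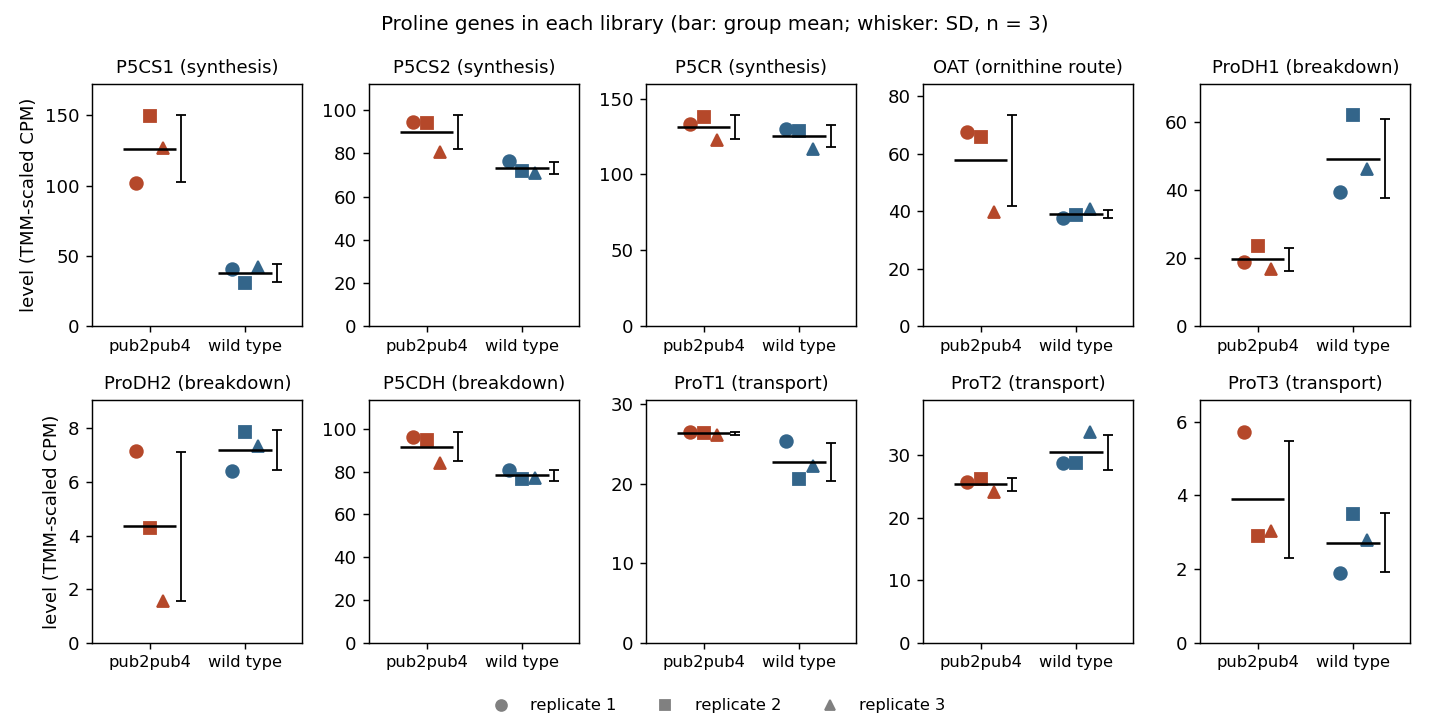
Level of each proline gene in TMM-scaled CPM (vertical axes, each from 0) in the 3 pub2pub4 libraries (red) and the 3 wild-type libraries (blue), with group means and SD. P5CS1 sits at 102 to 149.8 CPM in the mutant and 30.5 to 41.9 CPM in wild type, while ProDH1 sits at 16.8 to 23.5 CPM in the mutant and 39.6 to 62.1 CPM in wild type.

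P5CS1 (AT2G39800, listed as P5CSA, chromosome 2, 16598072 to 16603319, minus strand, TAIR10.1), for the rate-limiting step of proline synthesis, had 102, 149.8 and 127 CPM in the pub2pub4 libraries, against 40.8, 30.5 and 41.9 CPM in wild type. Every mutant library was above every wild-type library, and the lowest mutant value was that of pub2pub4 1. The means were 126 ± 23.9 CPM in pub2pub4 and 37.7 ± 6.32 CPM in wild type (SD, n = 3 each). This was a 3.34-fold difference, 1.74 ± 0.18 on the log2 scale (SE, adjusted p 0.0105). Among the 19019 tested genes this fold change ranked 101 from the highest. The call held without each library in turn, with adjusted p from 0.00584 to 0.0447. Against a null of 1.5-fold change, which called 0.0684% of all genes higher and as many lower, it was lost (adjusted p 0.0547).

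P5CS2 (AT3G55610, listed as P5CSB, chromosome 3, 20624020 to 20629295, minus strand), the second P5C synthase, known as the copy needed for embryo development, had 94.7, 94.0 and 80.7 CPM in pub2pub4 and 76.6, 71.9 and 71.2 CPM in wild type. The groups did not overlap, but the lowest mutant library, pub2pub4 3, lay near the highest of wild type. The log2 fold change was 0.29 ± 0.08 (SE), and the adjusted p of 0.0790 missed the threshold. Without pub2pub4 3 the gene was called (0.36, adjusted p 0.0221), as it was by DESeq2 (adjusted p 0.0495).

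P5CR (AT5G14800, listed as PROC1, chromosome 5, 4785960 to 4787996, minus strand), the last enzyme of synthesis, was at 131 ± 7.67 CPM in pub2pub4 and 125 ± 7.22 CPM in wild type (SD, n = 3 each). Its groups overlapped, and its log2 fold change was 0.07 ± 0.07 (SE, adjusted p 0.652), running from 0.02 without wild type 3 to 0.11 without pub2pub4 3. Per kilobase of gene length it had the highest level of the 10 members in both groups. The synthesis genes thus ranged from a 3.34-fold difference for P5CS1 to 1.05-fold for P5CR.

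The coding sequences of P5CS1 and P5CS2 were identical at 86.3% of 2154 aligned bases. Of all 50-base windows of the P5CS1 transcript 0.141% also occurred in P5CS2, and of all 100-base windows 0%. The labels give no read length. For ProDH1 with ProDH2, and among the 3 ProT genes, no 50-base window was shared, at coding identities of 76.7% for the ProDH pair and 80.6% to 90.2% among the ProT genes.

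Per kilobase, P5CS1 made up 51.3%, 60.9% and 60.5% of the summed level of the 2 synthase genes in pub2pub4 1 to 3, against 34.2%, 29.3% and 36.5% in wild type 1 to 3. P5CS2 was the higher of the pair in every wild-type library and P5CS1 in every mutant library. The summed level was 83.8 ± 9.52 CPM per kilobase in pub2pub4 and 43.3 ± 2.99 CPM per kilobase in wild type (SD, n = 3 each).

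OAT (AT5G46180, listed as DELTA-OAT, chromosome 5, 18718417 to 18721744, minus strand), a mitochondrial aminotransferase that makes P5C from ornithine during arginine breakdown, had 67.6, 65.8 and 39.5 CPM in pub2pub4. Wild type had 37.7, 38.7 and 40.6 CPM. The first 2 mutant libraries were above all of wild type, and pub2pub4 3 was within its range. The log2 fold change was 0.56 ± 0.20 (SE, adjusted p 0.198) and was 0.77 (adjusted p 0.00227) without pub2pub4 3. DESeq2 called the gene with all 6 libraries (adjusted p 0.0387).

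ProDH1 (AT3G30775, listed as POX1, chromosome 3, 12448636 to 12451556, minus strand), the main leaf enzyme for the first step of proline oxidation, had 18.8, 23.5 and 16.8 CPM in pub2pub4, against 39.6, 62.1 and 46.1 CPM in wild type. The highest mutant library was below the lowest wild-type library, and wild type varied most, with wild type 2 at the top. The means were 19.7 ± 3.43 CPM in pub2pub4 and 49.3 ± 11.6 CPM in wild type (SD, n = 3 each). On the log2 scale the difference was -1.32 ± 0.20 (SE, adjusted p 0.0229). This ranked 206 from the lowest of the 19019 fold changes. The call was lost without pub2pub4 1 (adjusted p 0.0718), where 1.09% of all genes were called lower, and without pub2pub4 2 (adjusted p 0.0569), where 0.250% were.

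ProDH2 (AT5G38710, listed as POX2, chromosome 5, 15501126 to 15504269, plus strand), the second proline dehydrogenase, known from vascular tissue and ageing leaves, was low throughout. It had 7.16, 4.29 and 1.57 CPM in pub2pub4, against 6.41, 7.88 and 7.33 CPM in wild type. The mutant libraries were spread more widely than wild type, and pub2pub4 1 was within the wild-type range. The log2 fold change was -0.73 ± 0.48 (SE, adjusted p 0.473), and it was -1.30 without pub2pub4 1 and -0.33 without pub2pub4 3.

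P5CDH (AT5G62530, listed as ALDH12A1, chromosome 5, 25099003 to 25103312, minus strand), the single enzyme for the second step of breakdown, had 96.5, 95.1 and 83.9 CPM in pub2pub4, against 81.0, 76.6 and 77.2 CPM in wild type. The groups did not overlap, with pub2pub4 3 again the lowest of the mutant. The log2 fold change was 0.23 ± 0.07 (SE, adjusted p 0.119), and the gene was called without pub2pub4 3 (0.29, adjusted p 0.0428).

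P5CDH shares its end with SRO5 (AT5G62520, similar to RCD one 5), which lies on the opposite strand. In salt stress the pair is a known source of small RNAs that lower P5CDH transcripts. In RefSeq the gene spans overlap by 905 bases, and 811 bases are exonic in both, which is 31.3% of the P5CDH exons and includes 139 of its coding bases. SRO5 had 3.58, 5.13 and 7.55 CPM in pub2pub4 and 1.73, 2.26 and 3.02 CPM in wild type. Every mutant library was above wild type, with a log2 fold change of 1.21 ± 0.31 (SE, adjusted p 0.0763). SRO5 was called by DESeq2 (adjusted p 0.00828), with a block for replicate number (0.0147) and without pub2pub4 1 (0.0401). It was not called by limma-voom (0.115), against a null of 1.5-fold change (0.691), or without any other single library (0.0841 to 0.252). Per kilobase SRO5 was at 3.29 ± 1.22 CPM in pub2pub4 and 1.42 ± 0.392 CPM in wild type, and P5CDH at 35.7 ± 2.68 CPM in pub2pub4 and 30.4 ± 0.941 CPM in wild type (SD, n = 3 each). No source used here gives the strand setting of the counting, so reads from the shared stretch cannot be assigned to 1 gene with certainty.

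**Figure D2:**
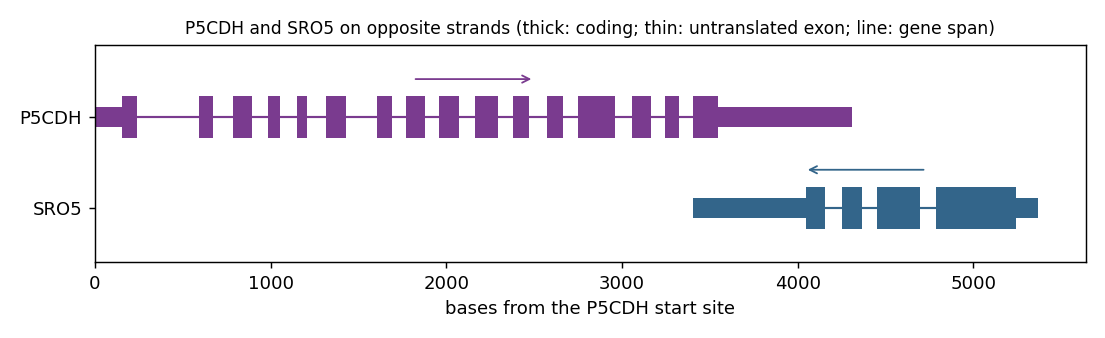
Map of P5CDH and SRO5 from the RefSeq annotation, in bases from the P5CDH start site (horizontal axis). Arrows give the direction of transcription, thick blocks are coding, thin blocks untranslated and lines the gene spans, which overlap by 905 bases at the ends of both genes.

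Smaller overlaps on the opposite strand concern 3 other members. P5CS1 shares 91 bases with AT2G39795, which was at 13.4 ± 0.377 CPM in pub2pub4 and 13.8 ± 0.373 CPM in wild type (SD, n = 3 each). P5CS2 shares 32 bases with AT3G55605, at 11.5 ± 0.708 CPM in pub2pub4 and 10.9 ± 0.941 CPM in wild type. ProT3 shares 81 bases with AT2G36580, whose level per kilobase was higher, at 30.5 ± 3.36 CPM in pub2pub4 and 25.2 ± 3.56 CPM in wild type. ProT3 itself was at 2.44 ± 0.997 CPM per kilobase in pub2pub4 and 1.7 ± 0.507 CPM per kilobase in wild type, and it overlaps a long non-coding RNA gene by a further 215 bases.

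The ratio of P5CS1 to ProDH1, the synthesis and breakdown genes with the largest changes, was taken within each library from levels per kilobase. It was 3.9, 4.57 and 5.39 in pub2pub4 1 to 3, against 0.739, 0.352 and 0.652 in wild type 1 to 3. P5CS1 was above ProDH1 in all 3 mutant libraries and below it in all 3 wild-type libraries. The mean ratio was 4.62 ± 0.749 in pub2pub4 and 0.581 ± 0.203 in wild type (SD, n = 3 each). No test is given, since both genes were chosen with their values known. P5CDH stood to ProDH1 at 3.43 ± 0.429 in pub2pub4 and 1.2 ± 0.295 in wild type, and the ratio was above 1 in all 3 mutant libraries and in wild type 1 and 3, but not in wild type 2 (0.894). P5CS2 stood to ProDH1 at 3.39 ± 0.399 in pub2pub4 and 1.13 ± 0.284 in wild type. Summed over all 3 synthesis genes, levels were 330 to 382 CPM in pub2pub4 and 230 to 247 CPM in wild type. The 3 breakdown genes summed to 102 to 123 CPM in pub2pub4 and 127 to 147 CPM in wild type.

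**Figure D3:**
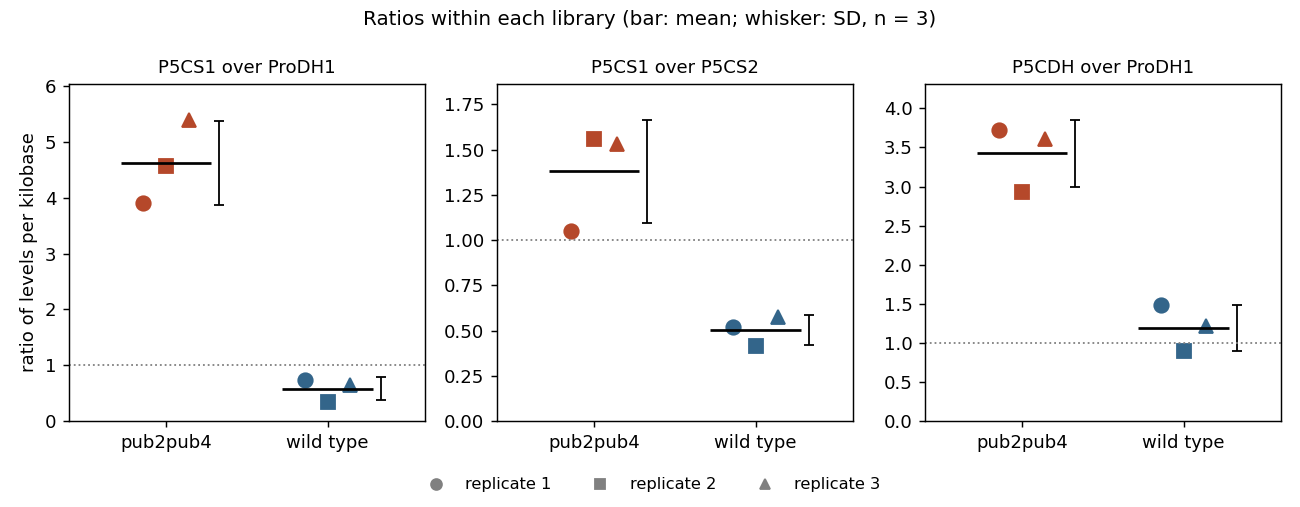
Ratios of levels per kilobase within each library (vertical axes, from 0, with a dotted line at 1) for P5CS1 over ProDH1, P5CS1 over P5CS2 and P5CDH over ProDH1, in pub2pub4 (red) and wild type (blue), with means and SD. P5CS1 over ProDH1 lies at 3.9 to 5.39 in the mutant and 0.352 to 0.739 in wild type.

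The 3 proline transporter genes had no call by edgeR, with 2 at an unadjusted p under 0.05, against 19.7% of all tested genes, and none by DESeq2 or limma-voom. Their proteins carry proline, glycine betaine and GABA across the plasma membrane. ProT1 (AT2G39890, chromosome 2, 16655577 to 16658412, plus strand), known from phloem, had 26.5, 26.3 and 26.1 CPM in pub2pub4, against 25.3, 20.6 and 22.2 CPM in wild type. The mutant values lay close together, just above wild type 1, and the log2 fold change was 0.21 ± 0.09 (SE, adjusted p 0.229), or 0.14 without wild type 2.

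ProT2 (AT3G55740, chromosome 3, 20695433 to 20698292, plus strand), known to be induced by salt, went the other way. It had 25.7, 26.1 and 24.2 CPM in pub2pub4, against 28.8, 28.7 and 33.7 CPM in wild type, with no overlap. Its log2 fold change was -0.26 ± 0.09 (SE, adjusted p 0.132). ProT3 (AT2G36590, chromosome 2, 15343006 to 15345673, minus strand), known from the leaf epidermis, had 5.73, 2.91 and 3.04 CPM in pub2pub4 and 1.88, 3.49 and 2.78 CPM in wild type. These ranges overlapped, and its log2 fold change was 0.52 ± 0.33 (SE, adjusted p 0.441), and it was 0.13 without pub2pub4 1 and 0.31 without wild type 1. Summed over the 3 genes, transport transcripts ran from 53.3 to 58.0 CPM in pub2pub4 and from 52.9 to 58.7 CPM in wild type. The 3 epidermis markers, PDF1, ATML1 and GL2, summed to 164 to 199 CPM in pub2pub4 and 184 to 229 CPM in wild type. ATML1 (log2 -0.19, adjusted p 0.167) and GL2 (-0.42, 0.0964) were lower in every mutant library, against 12.7% of all tested genes. PDF1 (-0.04) overlapped between the groups. Phloem markers summed to 399 to 419 CPM in pub2pub4 and 417 to 477 CPM in wild type, and the part of either in the transporter values was not tested.

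**Figure D4:**
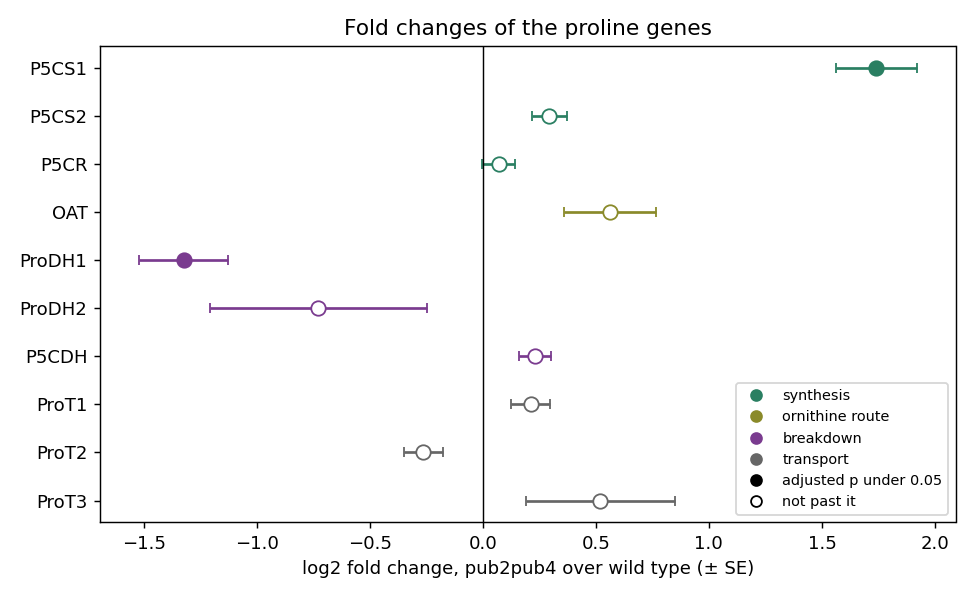
Log2 fold change of each proline gene, pub2pub4 over wild type, with its SE (horizontal axis), coloured by role, with filled points for adjusted p under 0.05. P5CS1 stands at 1.74 and ProDH1 at -1.32, and the other 8 lie between -0.73 and 0.56.

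Ordered by level per kilobase, pub2pub4 leaves had P5CR (102 CPM per kilobase), P5CS1 (48.5), P5CDH (35.7), P5CS2 (35.3), OAT (31.6), ProT1 (14.9), ProT2 (14.8), ProDH1 (10.6), ProDH2 (2.50) and ProT3 (2.44). In wild type the order was P5CR (97.7 CPM per kilobase), P5CDH (30.4), P5CS2 (28.8), ProDH1 (26.4), OAT (21.4), ProT2 (17.8), P5CS1 (14.5), ProT1 (12.9), ProDH2 (4.15) and ProT3 (1.7). P5CS1 was at rank 2 in the mutant and 7 in wild type, and ProDH1 at rank 8 in the mutant and 4 in wild type. In pub2pub4 the ranges overlapped between the neighbours P5CDH and P5CS2, P5CS2 and OAT, ProT1 and ProT2, and ProDH2 and ProT3. In wild type they overlapped between P5CDH and P5CS2, P5CS2 and ProDH1, ProDH1 and OAT, and P5CS1 and ProT1. Within a library the order was fixed for some of these pairs all the same. P5CS2 was above OAT in all 3 mutant libraries, though by only 0.172 CPM per kilobase in pub2pub4 1, and in all 3 wild-type libraries P5CDH was above P5CS2, by 1.37 to 1.98 CPM per kilobase, and ProDH1 above OAT, by 0.557 to 12.04 CPM per kilobase. In the other 5 pairs 1 of the 3 libraries had the opposite order, so these neighbours do not differ beyond their spread.

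Within the mutant, pub2pub4 3 had the lowest value of its group for 8 of the 10 members, the exceptions being P5CS1 and ProT3. No member was highest there. The fit without pub2pub4 3 called 4 members higher (P5CS1, P5CS2, OAT and P5CDH), against 3.93% of all genes tested in that fit, and 1 lower (ProDH1), against 2.36%. The same library was low for several of the lists below, such as senescence (266 CPM summed). It had the highest mutant sum of the abscisic acid and osmotic response genes (2337 CPM). The part of this in the members' values was not tested.

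Genes that supply glutamate and glutamine, the start of proline synthesis, had 1 of 11 called higher, against 2.49% of all tested genes, 1 lower, against 1.97%, and a median log2 change of 0.12. The lists here and below were drawn up with earlier results on these libraries known. GLN1-3, a cytosolic glutamine synthetase gene, had 63.9, 61.4 and 50.2 CPM in pub2pub4 and 36.3, 33.5 and 34.7 CPM in wild type (log2 0.75 ± 0.10 SE, adjusted p 0.0120). GLN1-4, of the same family, had 4.87, 5.53 and 5.0 CPM in pub2pub4 and 10.1, 12.2 and 8.68 CPM in wild type (-1.01 ± 0.15 SE, adjusted p 0.0150). GLN1-3 rose and GLN1-4 fell, and neither overlapped between groups. In this list 1 gene was higher and 3 were lower without overlap, against 13.4% and 12.7% of all tested genes. GLN1-1, of the same family, had 90.6, 76.6 and 43.4 CPM in pub2pub4 and 145, 165 and 102 CPM in wild type. It was lower without overlap but not called (log2 -0.97, adjusted p 0.187, or 0.0120 with a block for replicate number). GDH1, for a glutamate dehydrogenase, was not called (log2 -0.44, adjusted p 0.0586, or 0.0236 with a block for replicate number and 0.0321 without wild type 3), nor was GLN1-2 (log2 0.27, adjusted p 0.166, or 0.0216 without pub2pub4 3). Here and below, the fits without pub2pub4 2, wild type 1 or wild type 2 called few genes of any kind. They gave 43, 65 and 42 genes higher and 48, 67 and 44 lower, against 474 and 374 with all libraries. The call of GLN1-3 was lost without pub2pub4 2 (adjusted p 0.0557) and without wild type 2 (0.0669). That of GLN1-4 was lost without pub2pub4 2 (0.0569), without wild type 1 (0.0562) and without wild type 2 (0.0648).

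Of 14 genes for ornithine and arginine, which feed OAT, 0 were called higher by edgeR, against 2.49% of all tested genes, and 1 lower, against 1.97%, with 6 in either direction at an unadjusted p under 0.05, against 19.7%. DESeq2 called 2 higher, against 3.95%, and limma-voom 0, against 2.23%. ADC1, for arginine decarboxylase of polyamine synthesis, fell, at 128, 153 and 153 CPM in pub2pub4 and 184, 189 and 184 CPM in wild type (-0.36 ± 0.08 SE, adjusted p 0.0466). Without pub2pub4 3 ADC1 was called, and without each of the other 5 libraries it was not (adjusted p 0.0594 to 0.171). ARGAH2, an arginase gene whose product releases ornithine, was at 419, 302 and 325 CPM in pub2pub4 and 159.6, 193 and 262 CPM in wild type. Its groups did not overlap (0.77 ± 0.21 SE, adjusted p 0.109, or 0.0388 without wild type 3). ARGAH1 had a log2 change of 0.33 (adjusted p 0.120) and ADC2 of 0.52 (adjusted p 0.171), and both were called without pub2pub4 3 (0.0465 and 0.0198).

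Among 8 other carriers, of proline, other amino acids or GABA, AAP1 and GAT1 rose by edgeR, against 2.49% of all tested genes called higher. In this list 3 had an unadjusted p under 0.05, against 19.7%. DESeq2 called 3 higher, against 3.95%, limma-voom called 2 higher, against 2.23%, and none of these tools called any lower. AAP1, a permease for neutral amino acids including proline, had 108, 95.1 and 78.5 CPM in pub2pub4 and 50.2, 47.7 and 55.0 CPM in wild type (0.88 ± 0.12 SE, adjusted p 0.0124). GAT1, a GABA transporter gene, had 18.4, 14.8 and 12 CPM in pub2pub4 and 7.37, 9.30 and 7.19 CPM in wild type (0.92 ± 0.18 SE, adjusted p 0.0319). In both, pub2pub4 3 was the lowest mutant library and still above wild type. AAP1 lost its call without pub2pub4 2 (adjusted p 0.0621), wild type 1 (0.0582) or wild type 2 (0.0684), and GAT1 without pub2pub4 2 (0.106) or any wild-type library (0.0758 to 0.119). BAC2, a mitochondrial carrier of basic amino acids, had a log2 change of 1.77 (adjusted p 0.109, or 0.0219 without pub2pub4 3), and LHT1, for uptake of amino acids into mesophyll, of -1.07 (adjusted p 0.280, or 0.0206 with that block).

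Genes that use proline, for prolyl-tRNA, peptide cleavage or prolyl hydroxylation, had 0 calls among 6 by edgeR, against 4.46% of all tested genes. DESeq2 and limma-voom also called 0 of them, and 3 had an unadjusted p under 0.05 in edgeR, against 19.7%. P4H2 (log2 change -0.23), P4H5 (-0.22) and the cytosolic prolyl-tRNA synthetase gene (-0.15) had adjusted p of 0.0937, 0.192 and 0.209. All 3 were lower in every mutant library than in wild type, against 12.7% of all tested genes. The groups overlapped for the other 3, P4H1 (0.11), OVA6 (-0.04) and PIP (-0.01).

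Among 12 regulators of proline genes, mostly the bZIP factors of groups C and S1 that bind ACTCAT in the ProDH1 promoter, 1 rose, against 2.49% of all tested genes, 2 fell, against 1.97%, and 9 were not called. bZIP63, of group C, fell, at 6.5, 7.99 and 8.38 CPM in pub2pub4 and 13.1, 15 and 16.2 CPM in wild type (-0.95 ± 0.13 SE, adjusted p 0.0124). bZIP2, of group S1, fell by 0.36 on the log2 scale (adjusted p 0.0361, or 0.0546 with that block), and bZIP11, also of group S1, rose by 0.53 (adjusted p 0.0328). bZIP44 had a log2 change of 0.89 (adjusted p 0.0946). The call of bZIP63 was lost without pub2pub4 2 (adjusted p 0.0553) and without wild type 2 (0.0669). bZIP2 was called in 1 and bZIP11 in 1 of the 6 fits without a library, each of them failing without wild type 1 (0.102 and 0.111), wild type 2 (0.144 and 0.103), wild type 3 (0.0846 and 0.0654) and pub2pub4 2 (0.123 and 0.0940). bZIP2 also failed without pub2pub4 3 (0.0581) and bZIP11 without pub2pub4 1 (0.0716).

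**Figure D5:**
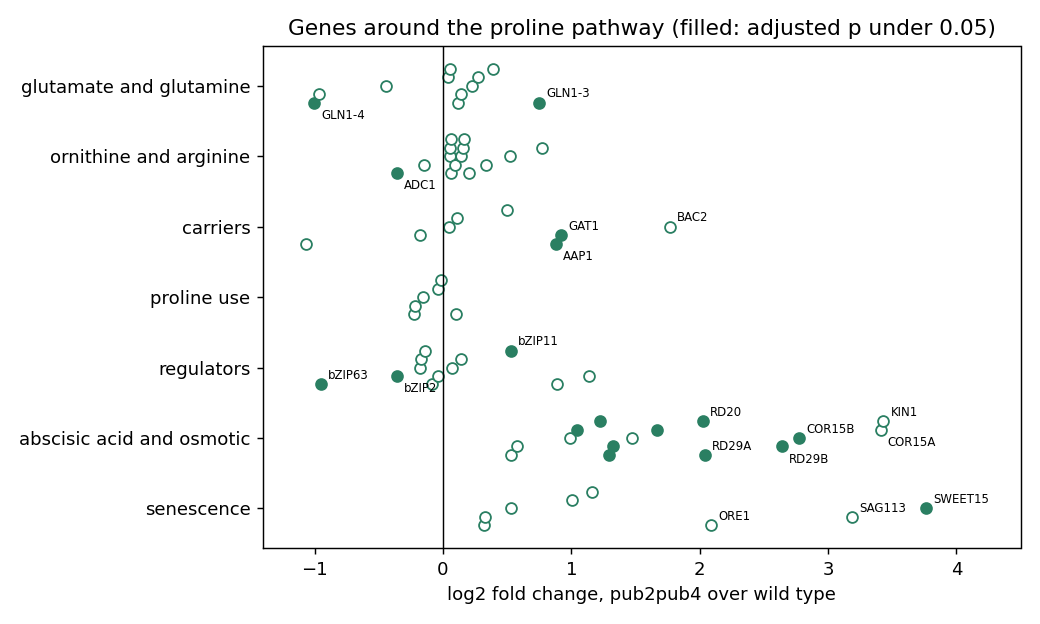
Log2 fold changes, pub2pub4 over wild type (horizontal axis), of the tested genes in 7 lists around the proline pathway, 1 row per list with points spread vertically only to separate them. Filled points have an adjusted p under 0.05, and all 15 abscisic acid and osmotic response genes lie above 0.

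P5CS1 is itself a target of abscisic acid and osmotic signals, and genes of that response were examined beside it. Of 15 tested, 9 rose and 0 fell by edgeR, against 2.49% and 1.97% of all tested genes, and 14 had an unadjusted p under 0.05, against 19.7%. DESeq2 called 14 higher, against 3.95%, limma-voom called 9 higher, against 2.23%, and neither called any lower. The median log2 change was 1.48, against 0.01 over all tested genes. The summed level of the list was 2176, 2273 and 2337 CPM in pub2pub4, against 910.0, 849 and 1168 CPM in wild type. Wild type 3 was the highest wild-type library for 12 of the 15 genes. For P5CS1 wild type 3 (41.9 CPM) and wild type 1 (40.8 CPM) lay side by side. In the mutant P5CS1 was lowest in pub2pub4 1, as were 8 of these 15 genes, while the other 7 were lowest in pub2pub4 3. COR15B (log2 2.77, adjusted p 0.00274) and COR47 (1.29, 0.00714), which encode cold-induced protective proteins, kept their calls whichever library was left out. RD29A (2.04, 0.0166) lost its call without pub2pub4 2 (0.0637) and wild type 1 (0.0713). ABI2 (1.23, 0.0175), for a phosphatase of abscisic acid signalling, lost it without pub2pub4 2 (0.0746), wild type 1 (0.0629) and wild type 2 (0.0750).

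Senescence is the other leaf state in which OAT and ProDH2 are known to be active. Of 8 tested senescence genes 1, SWEET15, rose by edgeR, against 2.49% of all tested genes, and 5 had an unadjusted p under 0.05, against 19.7%. DESeq2 called 4 higher, against 3.95%, limma-voom called 1 higher, against 2.23%, and none of these tools called any lower. SWEET15, a sugar transporter gene, was at 0.686 to 2.1 CPM in pub2pub4 and 0 to 0.192 CPM in wild type (adjusted p 0.0320, or 0.0517 with that block). Its call was lost without pub2pub4 1 (0.0606), pub2pub4 2 (0.102), wild type 1 (0.0865) and wild type 2 (0.145). SAG113 (log2 3.18, adjusted p 0.0657), NYE1 (0.33, 0.115) and PPH (0.32, 0.109) missed the threshold. Without pub2pub4 3 NYE1 (0.0440) and PPH (0.0201) were called. SAG12, the marker of late senescence, was at 0.287 CPM in pub2pub4 1 and listed at 0 in the other 5 libraries. The list summed to 372, 409 and 266 CPM in pub2pub4, against 202, 208 and 228 CPM in wild type. Within the mutant 7 of its 9 genes were lowest in pub2pub4 3, as were OAT and ProDH2. That library was also lowest for 8 of 11 glutamate and glutamine genes, 6 of 8 carriers, 8 of 12 regulators and 8 of the 10 members. For ornithine and arginine, proline use, and abscisic acid and osmotic genes it was 6 of 14, 3 of 6 and 7 of 15. The part of senescence in the values of OAT and ProDH2 was not tested.

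Likeness of profiles was measured as the Euclidean distance between log2 CPM values centred over the 6 libraries, among 17990 other genes at 1 CPM or more. Nearest to P5CS1 were AFP3 (0.400), AT1G16850 (0.434), AT2G41190 (0.438), AT5G22460 (0.489) and HOS3 (0.502). AFP3, whose family binds a factor of the abscisic acid response, had 22.5, 28.4 and 34.1 CPM in pub2pub4 and 10.2, 7.48 and 9.30 CPM in wild type. Nearest to ProDH1 were RLP12 (0.248), a receptor-like protein gene, ZCF37 (0.339), AT5G41761 (0.359), AT5G39020 (0.365) and AT4G11000 (0.383). RLP12 had 1.72, 1.83 and 1.57 CPM in pub2pub4 and 3.47, 5.61 and 3.74 CPM in wild type, with wild type 2 highest as for ProDH1.

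Nearest to P5CDH were ATSCP2 (0.0517), AT1G07280 (0.0530), AT5G03370 (0.0531), NDPK3 (0.0536) and AT3G56740 (0.0596). Among the members themselves the closest pair was P5CS2 with P5CDH, at a distance of 0.0869, so a synthesis gene and a breakdown gene had the most similar profile. Distances are small where a gene varies little, and no test was made of them.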

How the data were processed

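The deposited table gives expected counts per gene, which are estimates and can be fractions (95.1% equalled a whole number exactly as deposited), for 6 leaf messenger RNA libraries. The submitters' processing notes list TopHat2 2.1.0, RSEM 2.1.30 and TAIR10, with no role for any of them. Lengths per gene are the authors' deposited values.

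Counts were rounded. The main test was edgeR 4.0.16 (R 4.3.3): genes filtered by filterByExpr (minimum count 10, minimum total 15), TMM scaling, a robust quasi-likelihood model of group alone, and p-values adjusted by Benjamini-Hochberg across 19019 genes. The code was tested on simulated data. Each SE is the log2 fold change divided by the root of its F statistic. DESeq2 1.42.0 and limma-voom (limma 3.58.1) were alternatives. Likeness used CPM plus 0.1 on the log2 scale.

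The members and gene lists were chosen with earlier results of these data known. Named genes are the 10 members, PUB2 and PUB4, up to 4 genes per list with the smallest unadjusted p, and the 5 genes most like P5CS1, ProDH1 and P5CDH. SAG12, GLN1-1, RAB18, RD20, OVA6, PIP, GL2 and the genes that overlap members were added after values were seen. Positions and sequences are from RefSeq on TAIR10.1, since the table holds none.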

Additional observations from a re-analysis of the deposited data

How the results depend on the processing

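With all 6 libraries edgeR called 1 proline gene higher (2.49% of all tested genes) and 1 lower (1.97%). DESeq2 called 3 higher (3.95% of all genes) and 1 lower (3.72%), adding P5CS2 and OAT. A test against 1.5-fold called 0 members in either direction, against 0.0684% of all genes each way. By that test 2 members had an unadjusted p under 0.05, against 749 of all 19019 tested genes. Leaving out 1 library gave 1 to 4 members higher and 0 to 1 lower. The 4 came without pub2pub4 3, where 3.93% of all genes were called higher. The 0 came without pub2pub4 1 and without pub2pub4 2, where 1.09% and 0.250% of all genes were called lower. The 7 lists around the pathway held 11, 14, 8, 6, 12, 15 and 8 tested genes, in the order given above. In these lists together 14 genes were higher, against 2.49% of all tested genes, and 4 lower, against 1.97%. Of the 14 higher genes, 9 were abscisic acid and osmotic response genes. DESeq2 gave 25 higher in these lists, against 3.95% of all genes. The test against 1.5-fold gave 1 higher and 0 lower, against 0.0684% each. Leaving out a library gave 2 to 24 higher and 0 to 3 lower in these lists. The 24 came without pub2pub4 3, where 756 of all genes (3.93%) were higher. The 2 came without pub2pub4 2, where 43 of all genes were higher. Over all genes 474 were higher and 374 lower, DESeq2 gave 752 and 708, and the test against 1.5-fold gave 13 and 13. Leaving out a library gave 42 to 756 higher and 44 to 454 lower, so the number of calls rests on single libraries. The cause was not tested.

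A replicate block gave 489 genes higher and 577 lower over all genes, and kept both proline gene calls (P5CS1 0.0332, ProDH1 0.00265). Same-numbered libraries deviated from their group means with correlations of 0.126, 0.0642 and 0.152, and differently numbered ones with -0.176 to 0.0753. Of 6 libraries, 5 correlated best with their own number. The main fit did not take the numbers as pairs, and whether they mark pairs was not tested. Under the block GDH1 (adjusted p 0.0236), LHT1 (0.0206), SRO5 (0.0147), GLN1-1 (0.0120) and RAB18 (0.0489) passed and bZIP2 (0.0546), SWEET15 (0.0517) and RD20 (0.0637) failed the threshold.

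Without correction for gene length the P5CS1 to ProDH1 ratio was 6.45 in pub2pub4 and 0.810 in wild type, since P5CS1 is the longer gene. Without each library it ran from 4.24 to 4.98 in pub2pub4 and from 0.502 to 0.695 in wild type. Of 566 refits of single genes 487 kept direction and side of the threshold, 56 lost the call, 22 gained it, and P4H1, which was not called, ran from -0.0080 (without pub2pub4 2, a reversal) to 0.218 (without pub2pub4 3). Median-of-ratios factors, library totals alone, both filters, limma-voom and unrounded counts left the counts of proline genes as they were. ProDH2 and ProT3, at few CPM, are the members least well measured.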
